A study of Sus scrofa with 20 samples.

Results

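Oxidative phosphorylation subunits are the nuclear-encoded parts of the respiratory chain and of ATP synthase, and they were followed here in the peripheral blood mononuclear cells (PBMC) of piglets on 3 mineral diets. A gene was taken as a member when its symbol on the pig array began with NDUF followed by A, B, C, S or V and a digit, with UQCR, with COX4 to COX8 or with ATP5, or was SDHA to SDHD or CYC1. This gave 88 probe sets of 54 genes, of 13654 genes with a name: 24 of complex I, 3 of complex II, 2 of complex III, 9 of complex IV and 16 of complex V. Each gene was read by its probe set of highest mean over all arrays, and 49 of the 54 genes passed the filter on low values (23, 3, 2, 7 and 14 of complexes I to V). CYC1, the core proteins of complex III, COX4I1, COX5A, NDUFV1 and the subunits encoded in mitochondrial DNA were not analysed here.

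The animals were German Landrace piglets of both sexes, females and castrated males, bled on day 63 of life after weeks on a low (L), medium (M) or high (H) calcium and phosphorus diet. Medium was the control diet with the recommended mineral supply, and the 3 feeds shared a cereal and soybean base without added phytase. One array was read per animal, from 6 L (3 females, 3 males), 7 M (4 females, 3 males) and 7 H piglets (3 females, 4 males). The piglets came from a few litters, which the sample labels do not name, so that littermates enter the tests as independent animals.

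Values were log2 intensities after RMA, a method that corrects the background, gives all arrays the same distribution of intensities and sums up the probes of each set, so a difference of 1 is a doubling. Array medians lay between 4.29 and 4.46, and arrays correlated at 0.890 to 0.974 over the 22127 probe sets kept. The leukocyte marker PTPRC averaged 11.5, and the defining markers of T cells (CD3E), B cells (CD79A), cytotoxic cells (NKG7) and monocytes (CD14) were all present. Markers of neutrophils and red cells were present too. A level of one probe set cannot be set against that of another, so only differences between animals are compared. In these bulk samples, fewer cells of a type and less RNA per cell cannot be told apart.

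Oxidative phosphorylation is the last step of respiration. Complex I takes electrons from NADH and complex II from succinate, both hand them to ubiquinone, complex III passes them to cytochrome c, and complex IV passes them to oxygen. Complexes I, III and IV pump protons across the inner mitochondrial membrane, and complex V, ATP synthase, lets them flow back to make ATP. Resting lymphocytes rely largely on this route, whereas neutrophils hold few mitochondria and depend on glycolysis.

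In H animals most subunits were lower than in L animals, by a modest amount each. Of the 49 measured genes, 44 had a difference below 0, which is 89.8%, against 54.9% of the 9338 genes tested. The median difference H minus L was -0.24 on the log2 scale, against -0.02 over all genes. Against the control diet M the shift was smaller, with 41 of 49 genes below 0 (all genes 51.9%) and a median of -0.16, which was -0.08 without H female 17. L and M animals lay close together: 13 of 49 genes were below 0 in L minus M (all genes 46.6%), with a median of 0.06. That count was 24 without M male 19 and 20 without L female 10. The 3 comparisons share animals and are not independent.

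Single genes were tested with limma, with sex in the fit, and called under the threshold of the study, which asks for p under 0.01 before adjustment and for a Storey q under 0.21 over all probe sets. The filter and the test differ from those of the study, and litter is not in the fit, so the calls need not match. The study reported many probe sets that differed between L and H at that threshold. It reported no significant differences between L and M or between M and H after correction. Here 2 of the 9338 genes tested were called in H minus L (limma). Called members numbered 1 in H minus L (ATP5J2, all genes 0.0214%), 1 in H minus M (ATP5J2 again, all genes 0.0428%) and 0 in L minus M (all genes 0%, limma). Both calls of ATP5J2 were lost under many of the other settings tried, which are given with that gene. With Benjamini-Hochberg adjustment under 0.05 no member passed in any comparison, and neither did any of the 9338 genes tested. At an unadjusted p under 0.05, 17 members were lower and 0 higher in H than in L, against 4.21% of all genes lower and 4.97% higher, and 6 of them were at p under 0.01 (all genes 0.782%). For H minus M, 9 members were lower at p under 0.05 (all genes 3.20%), 5 of them at p under 0.01 (all genes 1.07%), and 1 was higher (all genes 3.98%). In L minus M, 0 were lower and 1 was higher, against 1.02% of all genes higher.

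Seen by animal, the shift was uneven within the H group. The mean of the 49 members lay at 7.32 to 7.55 in the L animals (7.43 ± 0.09, SD, n = 6), at 7.03 to 7.57 in the M animals (7.35 ± 0.21, n = 7) and at 6.81 to 7.39 in the H animals (7.19 ± 0.21, n = 7). The 3 H females were at 7.12, 6.81 and 7.03, while the 4 H males lay at 7.30 to 7.39, inside the range of the L animals or just under it. M female 14 and M male 19, at 7.09 and 7.03, lay within the range of the H females. H female 17 had the lowest value of all 20 animals for 24 of the 49 genes, and L male 9 the highest for 14. Without H female 17, members lower in H than in L at p under 0.05 numbered 9 in place of 17, and the median became -0.16. They numbered 10 without L male 9, and 11 without L female 10 or without H female 18. Without M male 19, members lower in H than in M numbered 18 in place of 9. The matching shares of all genes were not computed with an animal left out, so these counts have no background beside them.

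**Figure D1:**
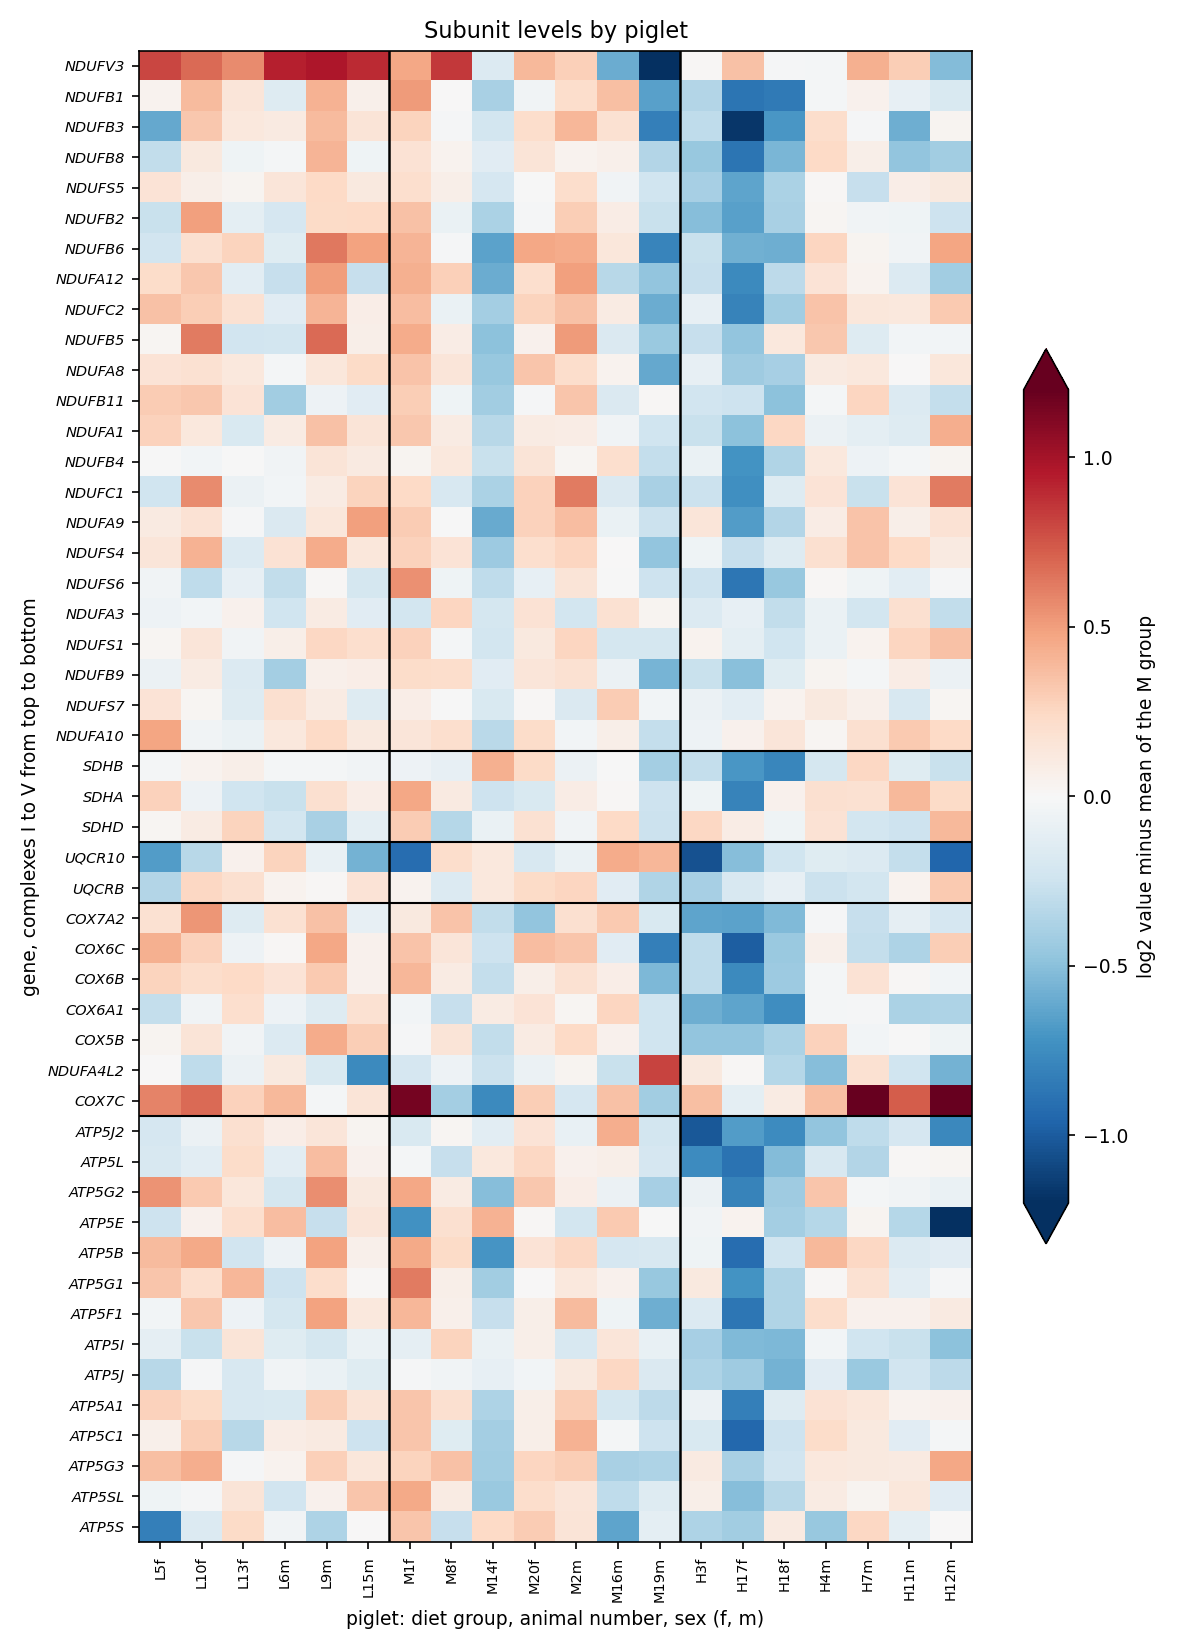
Log2 value of each of the 49 members (rows, complexes I to V separated by lines, ordered within a complex by the difference H minus L) in each piglet (columns, L, M, then H, females before males), minus the mean of the M group. Blue is lower and red higher than the M mean, and the column of H female 17 is blue over most rows, with H female 18, M female 14 and M male 19 next.

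**Figure D2:**
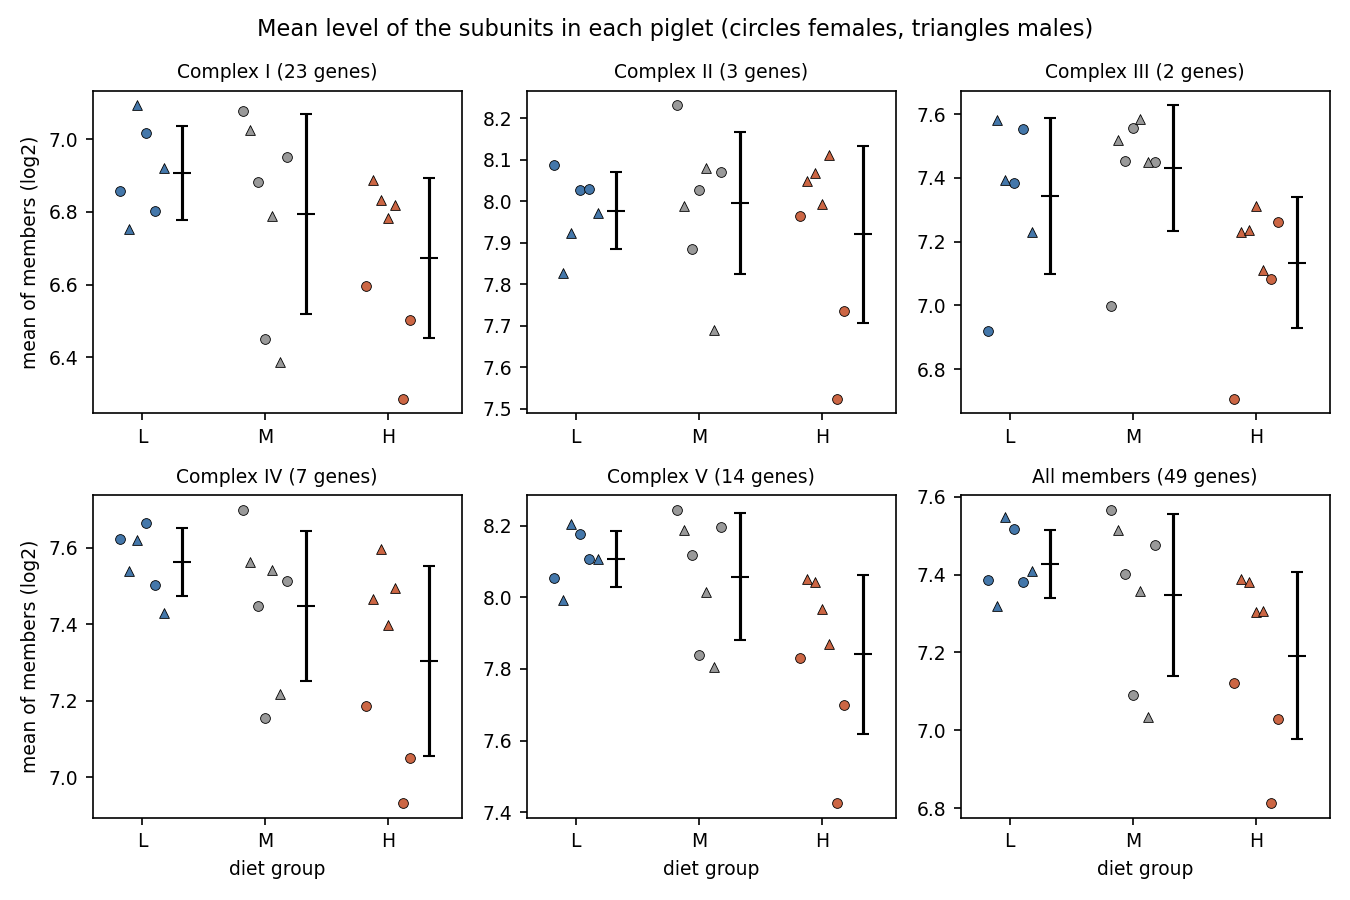
Mean log2 value of the members of each complex in each piglet (circles females, triangles males) for the L, M and H diets, with the group mean ± SD as a bar. For all 49 members the H group averages 7.19, against 7.43 for L and 7.35 for M, and the 3 H females lie below the 4 H males.

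Complex I, the NADH dehydrogenase, had 23 of 23 measured genes lower in H than in L, with a median of -0.20 and a range of -0.71 to -0.01. The 6 at p under 0.05 were NDUFV3, NDUFB1, NDUFB3, NDUFB8, NDUFS5 and NDUFB2. Apart from NDUFV3, these are accessory subunits of the membrane arm, the part that pumps protons. The 16 measured accessory genes of that arm had a median of -0.23. Against M, 19 of 23 genes were lower, with a median of -0.13, which was -0.05 without H female 17 and -0.21 without M male 19.

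NDUFS5, a small subunit of the membrane arm on its intermembrane side, had a lowest, median and highest value of 6.90, 6.99 and 7.10 in L, 6.62, 6.85 and 7.07 in M, and 6.23, 6.58 and 6.98 in H animals. The H animals spread widely, and 2 of them, H males 11 and 12, lay within the L range. Its difference H minus L was -0.35 (SE 0.12, q = 0.426, limma), and the exact permutation test over animals, two-sided as throughout, gave p = 0.0216. NDUFB1, another small membrane arm subunit, ran at 7.49, 7.75 and 8.07 in L, 6.99, 7.64 and 8.15 in M, and 6.77, 7.46 and 7.70 in H animals. Its lowest values were those of H females 17 and 18, at 6.77 and 6.79, and the groups overlapped. The difference H minus L was -0.49 (SE 0.19, q = 0.455, limma, exact permutation p = 0.0157).

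NDUFV3, an accessory subunit of the NADH-oxidizing module, stood out in another way, because it was high in L, while H minus M was 0.11. Its values were 6.48, 6.76 and 6.88 in L, 4.69, 6.20 and 6.76 in M, and 5.40, 5.93 and 6.34 in H animals, so that the highest H animal lay below the lowest L animal. The difference was -0.71 in H minus L (SE 0.24, q = 0.426, limma, exact permutation p = 0.00117) and 0.83 in L minus M (SE 0.24, exact permutation p = 0.0111), which was not called. No other of the 9338 genes had a larger positive difference L minus M. A second probe set of NDUFV3 did not show this pattern, with -0.20 in H minus L and -0.06 in L minus M.

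The catalytic members of complex I differed little. NDUFS1, the large iron-sulfur subunit that receives electrons from the flavin site, lay at 6.85, 7.00 and 7.14 in L, 6.68, 6.87 and 7.17 in M, and 6.65, 6.93 and 7.24 in H animals, with a difference H minus L of -0.08 (SE 0.12, q = 0.85, limma). NDUFS7, an iron-sulfur subunit near the ubiquinone site, differed by -0.05 (SE 0.10) by its chosen probe set and by 0.10 by a second one. NDUFB4, a membrane arm subunit, gave -0.19 and 0.03 with its probe sets. The groups overlapped for each of these genes. NDUFB10 did not pass the filter and had group means of 4.61 in L, 4.56 in M and 4.55 in H.

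Complex II, succinate dehydrogenase, which also works in the citric acid cycle and pumps no protons, had 3 measured genes and a median difference H minus L of 0.02, which lay between -0.06 and 0.13 with 1 animal left out. SDHB, its iron-sulfur subunit, was tightly held in L animals, at 8.93, 8.95 and 9.05, against 8.56, 8.91 and 9.40 in M and 8.19, 8.70 and 9.22 in H animals. The H females 17 and 18 carried the lowest values of all animals, at 8.27 and 8.19. The difference was -0.31 in H minus L (SE 0.15, exact permutation p = 0.0571) and -0.32 in H minus M (SE 0.14, exact permutation p = 0.0886), and each of its 6 probe sets was below 0 in H minus L. SDHA, the flavoprotein that oxidizes succinate, differed by 0.02 (SE 0.16), or 0.16 without H female 17, and its 4 probe sets ran from -0.17 to 0.16. Its H values lay at 7.24, 8.23 and 8.43, with H female 17 far below the others. SDHD, a membrane anchor, differed by 0.12 (SE 0.14).

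Complex III, which moves electrons from ubiquinol to cytochrome c, was read by 2 small accessory subunits only. UQCR10 lay at 6.96, 7.42 and 7.90 in L, 6.72, 7.76 and 8.07 in M, and 6.58, 7.35 and 7.49 in H animals. The M group was highest, apart from M female 1 at 6.72. Its difference was -0.52 in H minus M (SE 0.19, q = 0.605, limma, exact permutation p = 0.0583) and -0.27 in H minus L (SE 0.20). UQCRB, which binds near the ubiquinone pocket, differed by -0.17 in H minus L (SE 0.13) and by -0.12 in H minus M.

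Complex IV, cytochrome c oxidase, had the largest median, at -0.38 in H minus L, with 5 of 7 measured genes lower, and those 5 were COX7A2, COX6C, COX6B, COX6A1 and COX5B, each at p under 0.05. They are nuclear-encoded subunits that surround the catalytic core, which is itself encoded in mitochondrial DNA. Against M, 6 of 7 were lower, with a median of -0.21, which was -0.33 without M male 19.

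COX7A2, the form of subunit VIIa not restricted to heart and muscle, lay at 8.22, 8.56 and 8.91 in L, 7.90, 8.50 and 8.72 in M, and 7.74, 8.10 and 8.37 in H animals. The 3 H females, at 7.75, 7.74 and 7.85, were the lowest of all 20 animals. The difference was -0.52 in H minus L (SE 0.15, q = 0.426, limma, exact permutation p = 0.00699) and -0.37 in H minus M (SE 0.14, exact permutation p = 0.053). COX7A1, the heart and muscle form, did not pass the filter, with group means of 4.71 in L, 4.67 in M and 4.59 in H.

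COX6A1, the form of subunit VIa found outside muscle, lay at 9.14, 9.38 and 9.63 in L, 9.15, 9.45 and 9.69 in M, and 8.69, 9.05 and 9.41 in H animals. Of the 7 H animals, 5 were below every L and M animal. It differed by -0.38 in H minus L (SE 0.13, q = 0.434, limma, exact permutation p = 0.0274) and by -0.42 in H minus M (SE 0.12, q = 0.547, limma, exact permutation p = 0.014). COX6B, a subunit on the cytochrome c side, had L values of 6.47, 6.64 and 6.73, M values of 5.88, 6.49 and 6.81, and H values of 5.65, 6.38 and 6.59. The difference H minus L was -0.41 (SE 0.15, q = 0.444, limma, exact permutation p = 0.00524). L minus M was 0.20 for COX6B (SE 0.15, exact permutation p = 0.161).

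COX5B, a zinc-binding subunit, gave -0.30 in H minus L (SE 0.13, exact permutation p = 0.0787) by its chosen probe set and 0.15 by a second one. COX7C, one of the smallest subunits, went the other way, with 8.56, 8.91 and 9.27 in L, 7.81, 8.38 and 9.73 in M, and 8.46, 8.94 and 9.87 in H animals. H males 7 and 12 held the highest values, at 9.87 and 9.84. Its difference was 0.55 in H minus M (SE 0.26, q = 0.701, limma, exact permutation p = 0.101) and 0.21 in H minus L (SE 0.27). NDUFA4L2, a relative of NDUFA4 and not an established subunit, differed by 0.01 in H minus L, and NDUFA4 itself was near the bottom of the scale, with group means of 2.17 in L, 2.33 in M and 2.23 in H.

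**Figure D3:**
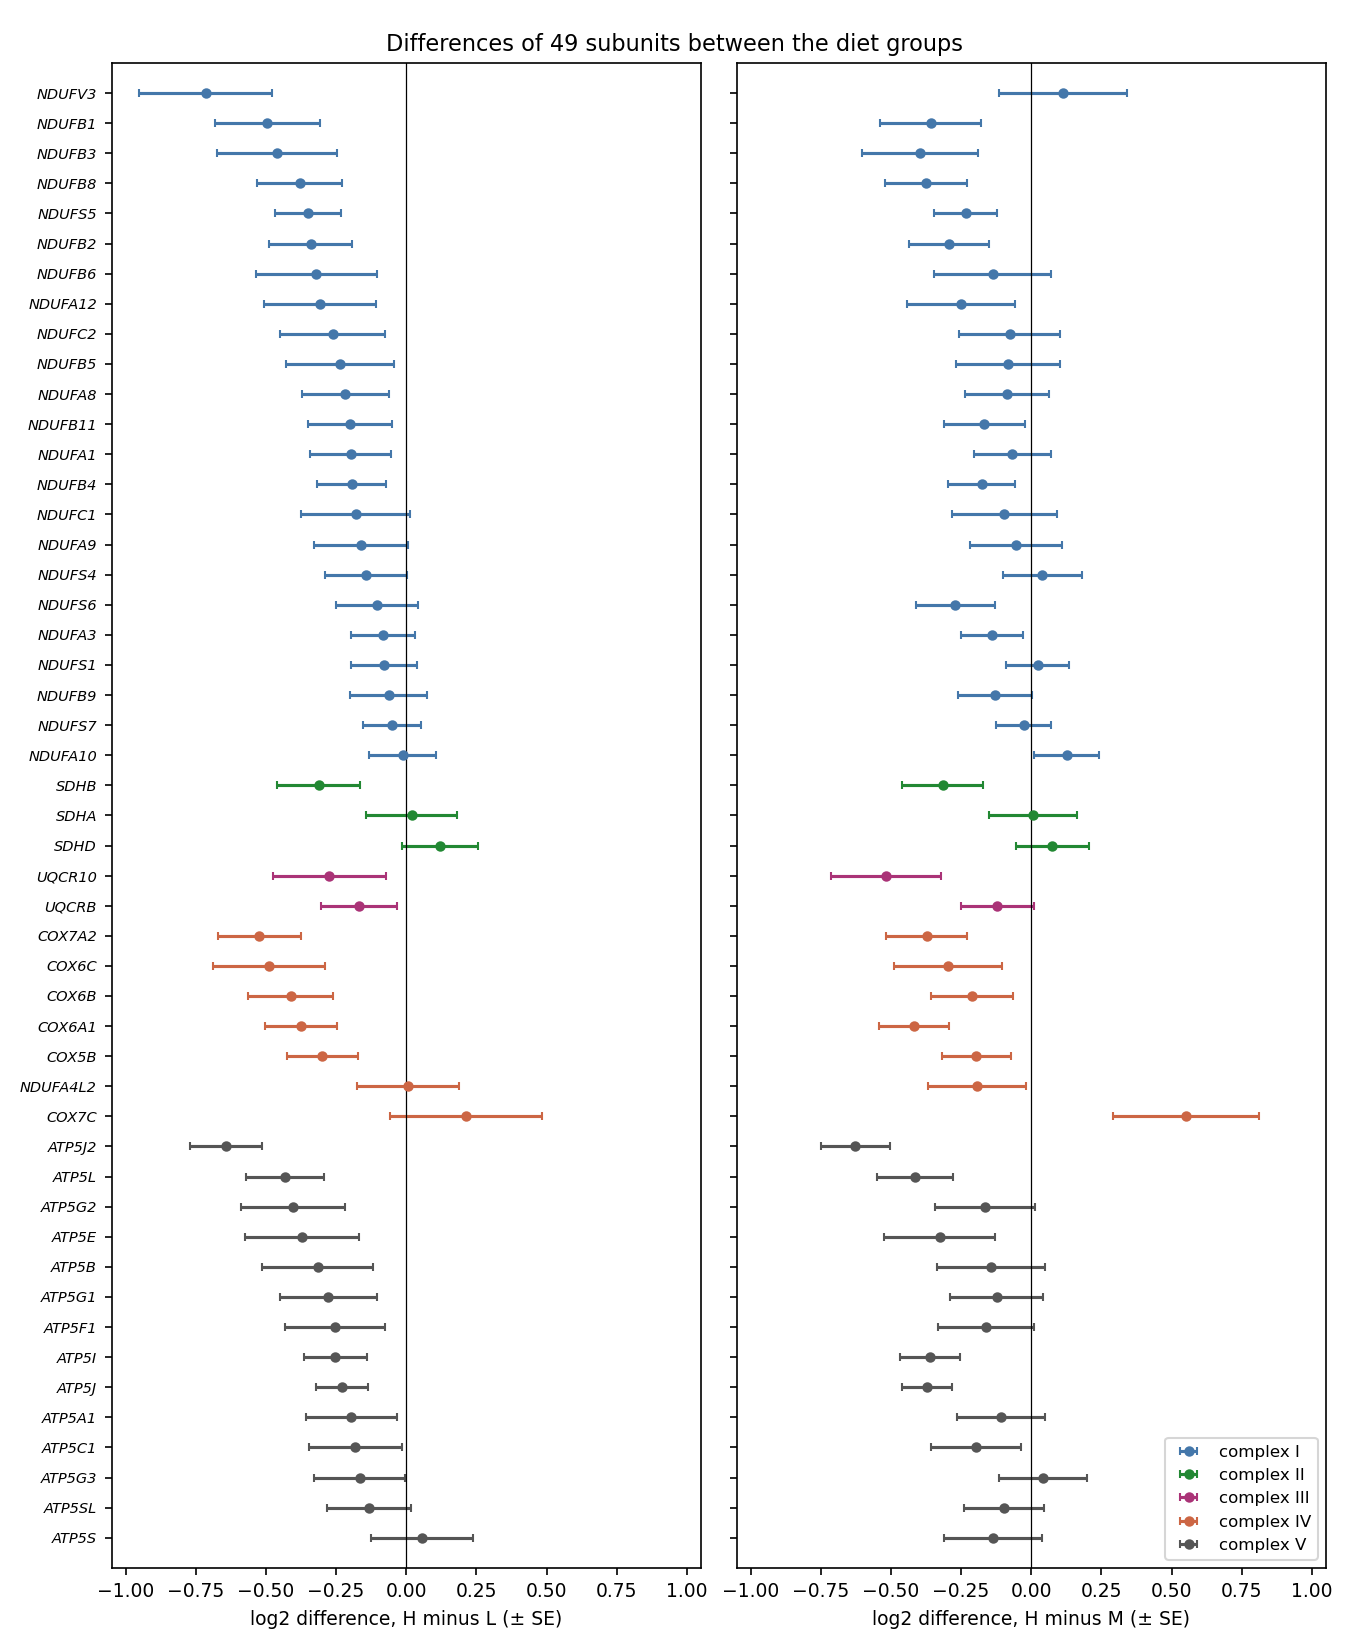
Fitted log2 difference ± SE of each of the 49 measured members in H minus L (left) and H minus M (right), ordered by complex and then by H minus L. Most points lie left of 0 in both panels, ATP5J2 is near -0.64 and -0.63 with a short bar, and COX7C lies right of 0 in both.

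Complex V, ATP synthase, had 13 of 14 measured genes lower in H than in L, with a median of -0.25, and 13 of 14 lower than in M, with a median of -0.16. The median in H minus M was -0.05 without H female 17 and -0.26 without M male 19. With the mean of T cell markers as a covariate the median in H minus L was -0.02, and with that of dividing cell markers the median in H minus M was 0.02. Its small membrane accessory subunits, ATP5J2, ATP5L and ATP5I (f, g and e), sit beside the ring in the membrane and take part in pairing synthases into dimers. All 3 were lower in H against both other diets, with medians of -0.43 in H minus L and -0.41 in H minus M, and all 3 were at p under 0.01 in H minus M.

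ATP5J2, subunit f, had a lowest, median and highest value of 7.34, 7.60 and 7.74 in L animals, 7.32, 7.45 and 7.97 in M animals and 6.53, 6.87 and 7.34 in H animals. The highest H animal and the lowest L animal met at 7.34, and 6 of the 7 H animals lay below every L and M animal. ATP5J2 fell in H animals by 0.64 against L (SE 0.13, q = 0.182, limma) and by 0.63 against M (SE 0.12, q = 0.204, limma). The exact permutation test gave p = 0.00233 against L and p = 0.00117 against M, where 0.000583 is the smallest p it can give. In L minus M the difference was 0.02. Its q lay close under the threshold: leaving out 1 animal at a time, the difference H minus L stayed between -0.70 and -0.58, but it was called in 4 of 20 such fits (limma, q 0.161 to 0.681). For H minus M it was called in 4 of 20 fits as well (q 0.0748 to 0.618). Over 15 other settings with all animals, ATP5J2 was called in 5 for H minus L, with differences of -0.67 to -0.58, and in 7 for H minus M, with differences of -0.65 to -0.52 (limma). The call in H minus L was lost with no filter, without sex in the fit, without moderated variances, with trend and robust variances, with 2 other normalizations, with 2 diets only, and with the T cell, the red cell or the neutrophil and monocyte scores as covariates. Of all genes, 0 were called in H minus L without moderated variances and 0 with the T cell score.

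ATP5L, subunit g, lay at 6.02, 6.18 and 6.59 in L, 5.94, 6.27 and 6.46 in M, and 5.33, 5.86 and 6.24 in H animals. The 3 H females, at 5.46, 5.33 and 5.69, were the lowest of all. It differed by -0.43 in H minus L (SE 0.14, q = 0.426, limma, exact permutation p = 0.0315) and by -0.41 in H minus M (SE 0.13, q = 0.585, limma, exact permutation p = 0.0268). ATP5I, subunit e, lay at 6.40, 6.54 and 6.82 in L, 6.47, 6.58 and 6.92 in M, and 6.13, 6.26 and 6.63 in H animals. Its difference was -0.36 in H minus M (SE 0.11, q = 0.547, limma, exact permutation p = 0.00408) and -0.25 in H minus L (SE 0.11, exact permutation p = 0.0268).

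ATP5J, coupling factor 6 of the peripheral stalk that holds the catalytic head still, had L values of 9.13, 9.35 and 9.45, M values of 9.29, 9.42 and 9.71, and H values of 8.90, 9.10 and 9.33. Of the 7 H animals, 6 lay below every M animal. Its difference was -0.37 in H minus M (SE 0.09, q = 0.438, limma, exact permutation p = 0.00117) and -0.23 in H minus L (SE 0.09, exact permutation p = 0.0152). ATP5F1, subunit b of the same stalk, differed by -0.25 in H minus L (SE 0.18, q = 0.693, limma). ATP5H and ATP5O, other stalk subunits, did not pass the filter, with group means of 2.10 to 2.27 and 3.74 to 3.79.

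The catalytic head differed less clearly. ATP5B, the beta subunit that makes ATP, lay at 9.88, 10.33 and 10.60 in L, 9.41, 10.27 and 10.57 in M, and 9.20, 9.98 and 10.50 in H animals, with a difference H minus L of -0.32 (SE 0.20, q = 0.652, limma). ATP5A1, the alpha subunit, differed by -0.20 (SE 0.16, q = 0.748, limma), and H female 17 was far below the other H animals, at 8.68. Without that animal the difference was -0.18 for ATP5B and -0.07 for ATP5A1. The ring subunits, encoded by ATP5G1, ATP5G2 and ATP5G3 for the same mature protein, were -0.28, -0.40 and -0.17 in H minus L, of which only ATP5G2 was at p under 0.05 (limma). Factor B, ATP5S, differed by 0.05 (SE 0.18), and ATP5SL, which the symbol rule places here although its product assists complex I assembly, by -0.13.

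**Figure D4:**
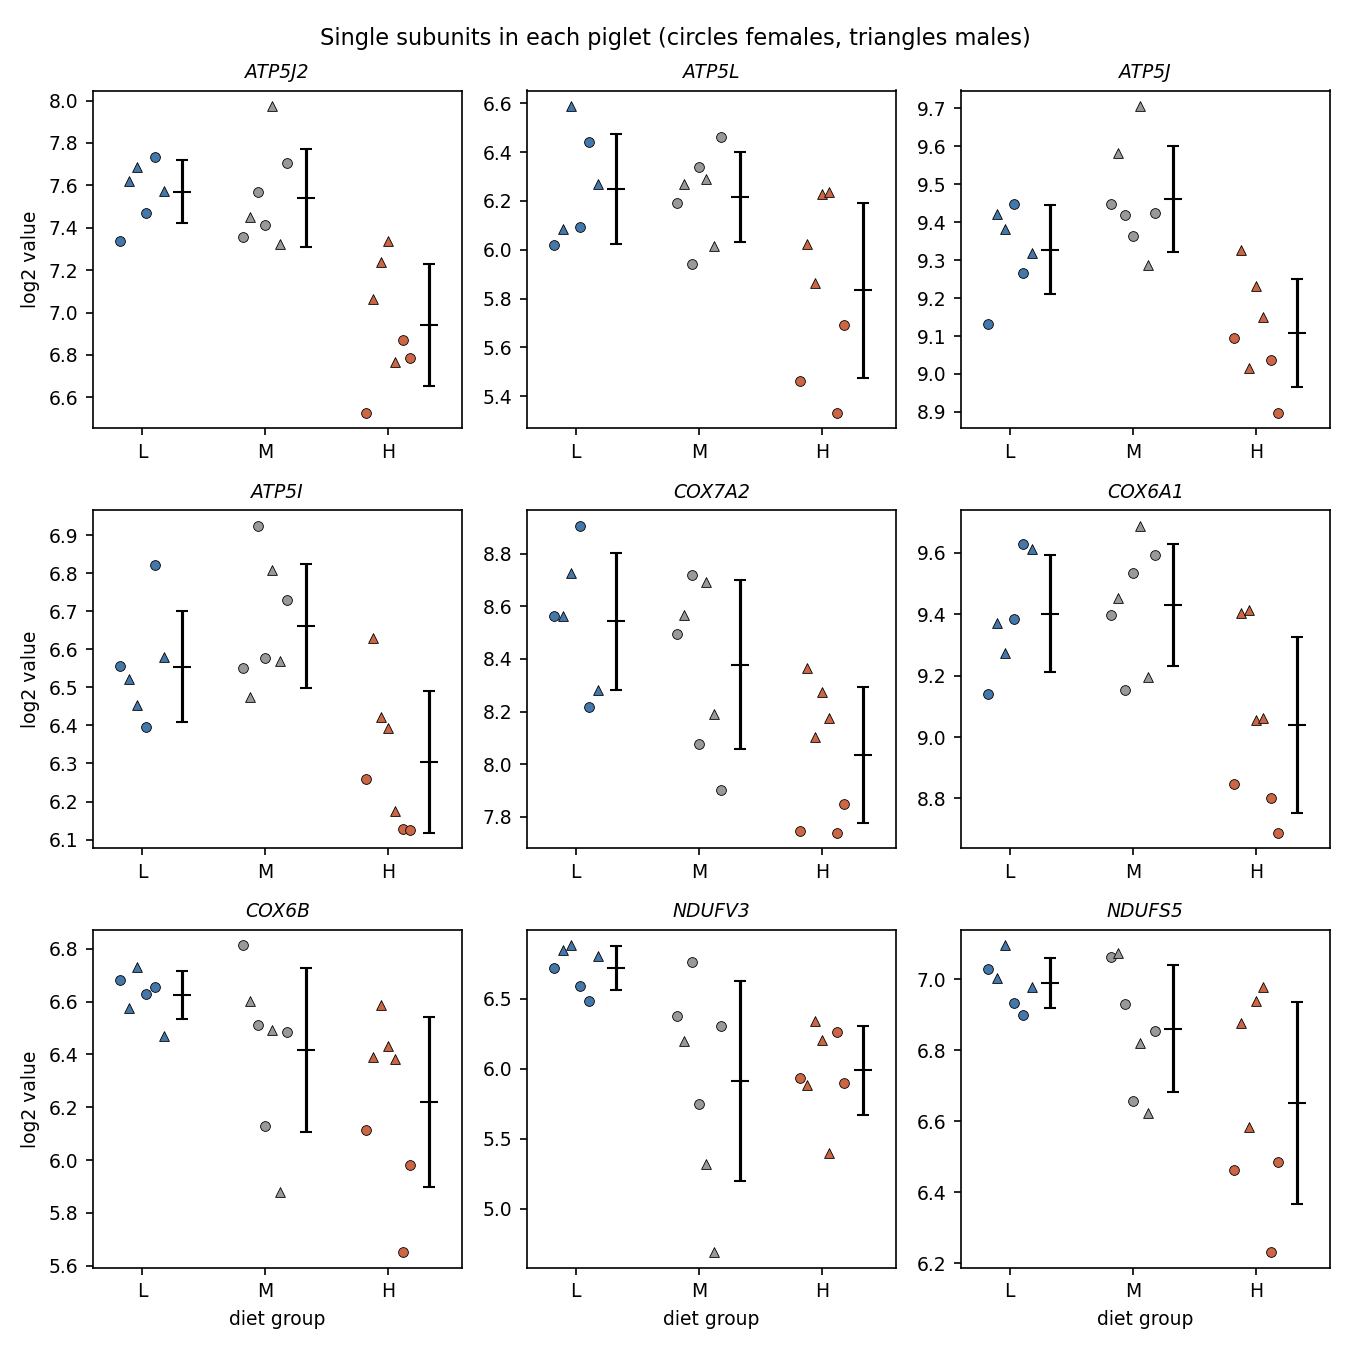
Log2 value of 9 members in each piglet (circles females, triangles males) for the L, M and H diets, with the group mean ± SD as a bar and a separate vertical scale for each gene. In ATP5J2 the H animals lie at 6.53 to 7.34, with 6 of the 7 below every L and M animal, whereas NDUFV3 is high in L (6.48 to 6.88) and spread in M (4.69 to 6.76).

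Members with several probe sets gave a check on single readings. More than 1 kept probe set was found for 11 genes, of which 7 had all of them on the same side of 0 in H minus L and 4 (SDHA, COX5B, NDUFB4 and NDUFS7) had both signs. Over the 69 kept probe sets of all members, 60 were below 0. ATP5E, the epsilon subunit of the central stalk, for one, gave -0.37, -0.32 and -0.24 by its 3 probe sets.

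The order over the 3 diets was mostly downward. The group means were ordered L over M over H for 31 of 49 members, against 24.0% of all genes, and the H mean was the lowest for 39, against 41.0% of all genes. With the diets scored in this order, 17 members had a falling trend at p under 0.05 (all genes 4.30%) and 0 a rising one. Of the members 0 were called, as were 0 of all genes (limma). This trend mainly restates H minus L and does not show where M lies. Among the falling members, NDUFV3 was lowest in M, and COX6A1, ATP5I and ATP5J were highest in M. By complex, the falling trends numbered 6 of 23, 1 of 3, 0 of 2, 5 of 7 and 5 of 14. Groups that did not overlap were rare, with 2 members, ATP5J2 and NDUFV3, wholly lower in H than in L, against 0.129% of all genes. For ATP5J2 the highest H animal, at 7.33542, lay barely below the lowest L animal, at 7.33545. The second probe set of NDUFV3 did not share the pattern of the first.

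The sexes were also read apart. Within females, H minus L was below 0 for 47 of 49 members, with a median of -0.47, where 57.7% of all genes were below 0 with a median of -0.05. Within males it was below 0 for 34 of 49, with a median of -0.06, where 47.0% of all genes were below 0 with a median of 0.01. Complex IV had medians of -0.61 in females and -0.14 in males, complex I -0.47 and -0.04, and complex V -0.46 and -0.05. The difference between the sexes was tested gene by gene as an interaction. At p under 0.05 there were 5 members (NDUFB11, NDUFC2, SDHB, COX6B and COX7C), against 5.26% of all genes. Of the members 0 were called, as were 0 of all genes, and the smallest q among the members was 0.804 (limma). Each sex had 3 or 4 animals per diet. For ATP5J2, H minus L was -0.79 in females and -0.53 in males, and for NDUFV3 it was -0.57 in females and -0.89 in males. COX7C was -0.41 in females and 0.74 in males. Averaged over the diets, females minus males had a median of -0.11 (all genes 0.001), with 1 member, COX5B, at p under 0.05 (all genes 1.83%). By diet, the members averaged 7.428 in females and 7.426 in males in L, 7.383 and 7.302 in M, and 6.988 and 7.345 in H. Females were thus lower in H only.

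**Figure D5:**
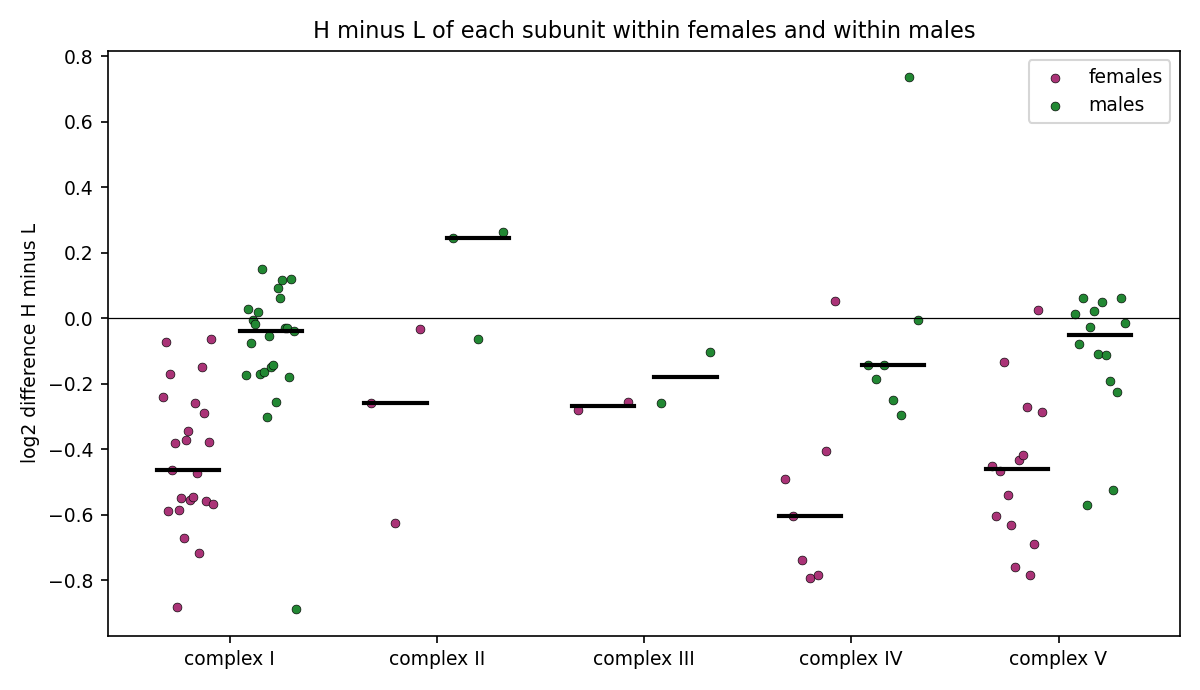
Log2 difference H minus L of each of the 49 members within females (left of each pair) and within males (right), by complex, with the median as a bar. The medians are -0.47 and -0.04 in complex I, -0.61 and -0.14 in complex IV and -0.46 and -0.05 in complex V, for females and males in that order.

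Several lists of cell type markers also lay mostly on one side of 0, while the ranges of the L and H animals overlapped for every list. In H minus L, 0 markers were called (all genes 0.0214%, limma). At p under 0.05, 3 of 7 T cell, 1 of 6 B cell and 2 of 11 dividing cell markers were lower (all genes 4.21%). At the same p, 4 of 6 monocyte and 5 of 9 neutrophil markers were higher (all genes 4.97%). The red cell, cytotoxic cell and platelet lists had 0 at that p. Of the T cell markers 7 of 7 were below 0 in H minus L, with a median of -0.39, and their mean ranged over 9.05 to 9.53 in L, 8.71 to 9.51 in M and 8.13 to 9.33 in H animals. B cell markers were below 0 in 6 of 6 (median -0.41), with means of 8.17 to 9.18 in L, 7.72 to 9.24 in M and 7.54 to 8.80 in H. Markers of dividing cells were below 0 in 11 of 11 (median -0.31), with means of 6.61 to 7.61 in L, 6.60 to 7.50 in M and 6.12 to 6.91 in H. These lists lay on the same side of 0 as the subunits, as did the red cell markers, 7 of 7.

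Monocyte and neutrophil markers lay the other way. Monocyte markers were above 0 in 6 of 6 (median 0.79), with means of 7.34 to 8.75 in L, 7.70 to 9.17 in M and 8.32 to 9.69 in H, and neutrophil markers in 8 of 9 (median 0.80), with means of 7.23 to 8.66, 7.19 to 8.93 and 7.75 to 9.19 in the same order. Red cell markers had a median of -0.55, with means of 9.90 to 11.7 in L, 9.87 to 11.8 in M and 8.80 to 11.3 in H, and cytotoxic cell markers one of -0.09, with 7.09 to 8.30, 7.14 to 9.38 and 6.82 to 8.99. Platelet markers had a median of 0.20, with 5.62 to 8.34, 5.62 to 8.46 and 6.81 to 8.27. In H minus M, red cell markers were below 0 in 7 of 7 (median -0.94), as were cytotoxic cell markers, 7 of 7 (median -0.45). The medians there were -0.33, -0.13 and -0.32 for T cell, B cell and dividing cell markers. For monocyte, neutrophil and platelet markers they were 0.62, 0.56 and 0.51. H female 17 had the lowest T cell mean of all animals, at 8.13, and the H females averaged 8.65 ± 0.45 for T cell markers (SD, n = 3), against 9.29 ± 0.24 in L females, while H males averaged 9.16 ± 0.28 (n = 4), against 9.32 ± 0.23 in L males.

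With the T cell marker mean as a covariate in limma, 29 of 49 members were below 0 in H minus L and 6 were lower at p under 0.05. Neutrophil and monocyte scores as covariates left 6 at p under 0.05, and the score of dividing cells left 5. The matching shares of all genes were not computed under these fits, so these counts have no background beside them. In H minus L, ATP5J2 was at -0.63 with the T cell score, -0.66 with the neutrophil and monocyte scores and -0.58 with the red cell score, and it was called in none of these fits. In H minus M it was at -0.52 with the red cell score and -0.65 with the neutrophil and monocyte scores, also not called. ATP5J2 stayed called in H minus M with the T cell score (all genes 1.77%). With the dividing cell score it stayed called in H minus L (all genes 0.0643%) and in H minus M (all genes 5.34%). The part of cell composition in these differences was not tested beyond these fits.

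Around the respiratory chain, lists of genes from the same organelle were read in the same way. Protein import, the machinery that brings nuclear-encoded proteins into mitochondria, had 17 of 19 genes below 0 in H minus L (all genes 54.9%), with a median of -0.20. At p under 0.05, 4 of them were lower (all genes 4.21%). TIMM8A, a chaperone of the intermembrane space, gave -0.31 (SE 0.13, q = 0.487, limma), and TIMM50, a receptor of the inner membrane translocase, -0.35 (SE 0.15, q = 0.503, limma). Genes of ADP/ATP and phosphate exchange, which feed ATP synthase, were below 0 in 9 of 11, with a median of -0.24. VDAC3, a channel of the outer membrane, had the smallest p of that list, with -0.38 (SE 0.12, q = 0.426, limma), and SLC25A3, the phosphate carrier, gave -0.32 (SE 0.17, q = 0.578, limma).

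Other lists had medians nearer to that of all genes. Assembly factors, which build the complexes but are not part of them, were below 0 in 12 of 16 with a median of -0.06 and 0 at p under 0.05. TMEM70, needed for ATP synthase assembly, was at 0.34 (SE 0.20) and COX17, a copper chaperone for complex IV, at -0.43 (SE 0.26). Electron carriers and ubiquinone synthesis genes were below 0 in 9 of 13 with a median of -0.11, and 2 were lower and 2 higher at p under 0.05. Among them COQ3, a methyltransferase of ubiquinone synthesis, was at -0.44 (SE 0.18, q = 0.487, limma) and COQ4 at 0.25 (SE 0.11, q = 0.509, limma). Citric acid cycle genes were below 0 in 9 of 12 with a median of -0.04, with SUCLG1 at -0.28 (SE 0.17) and OGDH at 0.16 (SE 0.15). Nuclear regulators of mitochondrial genes were below 0 in 7 of 11 with a median of -0.05, with MYC at -0.23 (SE 0.18) and GABPB1, a subunit of GA-binding protein, at -0.16 (SE 0.13). Over the lists of this paragraph and the one before, 0 genes passed the threshold for a call in H minus L (all genes 0.0214%, limma). At p under 0.05, 7 were lower (all genes 4.21%) and 2 higher (all genes 4.97%). The lower ones were 4 of 19 for protein import, 1 of 11 for ADP/ATP and phosphate exchange and 2 of 13 for electron carriers.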

How the data were processed

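The deposited values are log2 intensities that the authors made from scans of Affymetrix snowball arrays (GCOS 1.1.1) by RMA. The study states that 1 array failed quality control, and values of 20 animals were used. RMA brings all arrays to one distribution, so a shift shared by every transcript would mostly not be seen. Probe sets above the array median on at least 16 of 20 arrays were kept (22127 of 47845, 123 control probe sets left out), in place of the study's presence calls. Gene names came from the platform annotation, with 468 updated. Diets were fitted together in limma 3.58.1 (R 4.3.3) with sex as a covariate. Litter is not in the labels. Differences are H minus L, H minus M and L minus M. Exact permutation tests covered 1716 (H, L) or 3432 (H, M) assignments. The number of arrays limits the precision. Members and lists were chosen with earlier results of these data known, so lists carry no test. Named were called genes, those of smallest p or largest rise per complex, catalytic subunits, genes with discordant probe sets and, per list, the smallest p. Other genes with values were chosen after they were seen. Steps were tested on simulated data.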

Additional observations from a re-analysis of the deposited data

Results flagged for a closer look

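Among 87 readings, each of 1 gene or 1 mean of members in 1 diet group, 4 held an animal far from the rest of its group. Chance alone can give this at about 1 in 20 independent groups. The readings share the same animals, so that rate cannot be applied to their total. SDHA had its lowest H value in H female 17, at 7.24, with the next H animal at 7.99. The same animal was lowest for ATP5A1, at 8.68, with the next at 9.34. The mean of the 2 complex III genes was lowest among M animals in M female 1, at 7.00 (next 7.45), and lowest among H animals in H female 3, at 6.71 (next 7.08). No difference of the diet effect between the sexes was called, for the members or over all genes.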

How the results depend on the processing

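The count of called members in H minus L, 1, was 0 with no filter, without sex, without moderated variances, with trend and robust, with centred arrays, with cyclic loess, with the arrays of 2 groups only, with the Benjamini-Hochberg threshold, and with the neutrophil and monocyte, T cell or erythroid scores as covariates. It was 9 with array weights, a setting under which 4.68% of all genes were called. Of all genes, 0 were called in H minus L without moderation, with the T cell score and with the Benjamini-Hochberg threshold. For the other settings that gave 0, the share of all genes was not computed. In H minus M the count of called members was 0 in these settings except without moderation, with array weights and with the T cell score, each giving 2 (all genes 0.0428%, 0.193% and 1.77%). It was 4 there with the dividing cell score (all genes 5.34%). Members lower at p under 0.05 numbered 6, 6 and 5 in H minus L with the neutrophil and monocyte, T cell and dividing cell scores, 16, 15 and 18 in H minus M with array weights, cyclic loess and the background level, and 1 in L minus M without moderation. Members below 0 numbered 29, 27 and 21 (H minus L, H minus M, L minus M) with the T cell score, 26 in H minus M with the dividing cell score and 25 in L minus M with the background level. The median of complex V was -0.015 in H minus L with the T cell score and 0.022 in H minus M with the dividing cell score. For members below 0, members at p under 0.05 and medians, the matching values over all genes were not computed under these settings. The erythroid and dividing cell scores were added after seeing the data. The causes of these shifts were not tested.

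In H minus L, SDHA turned to -0.038 with the mean of its probe sets and -0.086 with the erythroid score, SDHD to -0.087 and ATP5A1 to 0.0062 with the neutrophil and monocyte scores, NDUFS1, ATP5A1 and ATP5B to 0.033, 0.095 and 0.029 with the T cell score, and NDUFS1 and ATP5A1 to 0.070 and 0.032 with the dividing cell score.

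Leaving out 1 animal at a time, called members ranged over 0 to 2 in H minus L and in H minus M and 0 to 0 in L minus M, and members lower at p under 0.05 over 9 to 18, 7 to 18 and 0 to 0. Members below 0 ranged over 43 to 46, 35 to 46 and 11 to 24 (24 without M male 19). The median of all members ranged over -0.30 to -0.16, -0.24 to -0.08 and 0.00 to 0.13. The matching values over all genes were not computed with an animal left out, so these ranges have no background beside them. SDHA (-0.057 to 0.16) and ATP5S (-0.076 to 0.14) changed sign in H minus L. No paired analysis was possible because each animal has a number of its own and the groups share none.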
